A study of Mus musculus with 9 samples.

Results

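The genes described here encode 9 proteins of the paraspeckle: Sfpq, Nono, Pspc1, Rbm14, Tardbp, Hnrnpk, Cpsf6, Nudt21 and Matr3. They were chosen by name and are 9 of the 43629 genes in the deposited counts. All 9 were among the 19753 genes that passed the filter on low counts. RNA-seq was performed on the frontal cortex grey matter of female C57BL/6 mice, with RNA depleted of ribosomal RNA. The 5 wild-type (WT) mice were 2, 2, 3, 4 and 4 months old and carried no Neat1 mutation. The 4 Neat1-/- mice, numbered 1, 3, 4 and 5 in the labels, were 3, 3, 4 and 2 months old, and lacZ followed by polyadenylation signals had been placed after the start site of Neat1. The insertion is present in every cell of the animal, and no treatment is named for either genotype.

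Paraspeckles are nuclear bodies built on the long isoform of the Neat1 noncoding RNA, and they do not form without it. SFPQ, NONO and PSPC1 are related RNA-binding proteins that pair with each other and coat the RNA, while RBM14 is needed to join the coated RNA into a body. HNRNPK and the cleavage factor formed by NUDT21 and CPSF6 act on whether the short or the long isoform of Neat1 is made, and TARDBP and MATR3 are RNA-binding proteins of the nucleus that are also found in paraspeckles. The comparison asks whether the mRNAs of these partners differ in level in cortex that lacks most Neat1 RNA.

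Stretches of Neat1 RNA are shown because proteins of this group are known to bind such letters. NUDT21 reads UGUA ahead of a poly(A) site, and TARDBP binds runs of UG. The first stretch is the last 120 bases of the short isoform, 3004 bases long in the GENCODE M21 annotation, at chr19:5842307-5842426 of GRCm38 (minus strand, within the exon of the gene). Capitals mark TGTA, whose first bases lie 108, 77 and 60 bases from the 3′ end, and the poly(A) signal AATAAA at 20 bases. Both were searched on the transcript strand only, and they do not overlap.

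Neat1 short isoform, 3′ end: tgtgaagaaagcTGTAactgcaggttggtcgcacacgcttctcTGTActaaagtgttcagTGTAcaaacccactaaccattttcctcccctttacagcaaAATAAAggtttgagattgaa

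Of 137364 annotated transcripts of at least 120 bases, 42.2% hold TGTA in their last 120 bases, 3.72% hold it 3 or more times, and 29.8% hold AATAAA. The second stretch lies in the long isoform, 20771 bases long, at chr19:5826019-5826058 of GRCm38 (minus strand). Capitals mark its longest run of TG units, of 12 units and 24 bases. A run of at least 12 units was found in 2267 of 134529 transcripts of at least 200 bases, or 1.69%. This share was not matched for transcript length, and a long transcript has more room for such a run.

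Neat1 long isoform, TG repeat: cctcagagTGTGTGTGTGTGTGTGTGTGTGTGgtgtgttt

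These letters are a description of the RNA and were not tested for binding.

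Neat1 itself was measured first, as the targeted gene. WT replicates 1 to 5 held 60.8, 83.2, 119.9, 68.1 and 75.3 CPM (counts scaled to a library total of 1000000, with TMM factors). Neat1-/- replicates 1, 3, 4 and 5 held 7.38, 7.11, 8.36 and 9.72 CPM. The genotypes did not overlap, and the log2 fold change was -3.33 (standard error 0.19, edgeR's quasi-likelihood test, adjusted p = 1.27e-06). Total counts were 51276067 to 64648856 per library. On the first principal component, WT replicates 3 and 4 stood apart at 47.7 and 42.1, with the other 7 libraries between -17.8 and -4.80. Values that moved most when these libraries were left out are also given without them. Cortical markers were present in every library, with 771 to 936 CPM of the glutamatergic transporter Slc17a7 and 63.9 to 74.4 CPM of the cortical transcription factor Tbr1. The 12 neuronal markers summed to 6279 to 6549 CPM in WT and 6409 to 6787 CPM in Neat1-/- mice, and no marker of this list was at 0. All 10 markers of mature oligodendrocytes had log2 fold changes below 0, 4 of them at an unadjusted p under 0.05 and 0 after adjustment, and summed to 2197 to 3416 CPM in WT and 1880 to 2879 CPM in Neat1-/- mice. All 8 progenitor markers had log2 fold changes below 0, 3 of them at that unadjusted p. Their sums were 383 to 425 CPM in WT and 361 to 384 CPM in Neat1-/- mice. Of 8 microglial markers 6 were above 0 and 2 below 0, and 3 were higher at that unadjusted p. Their sums were 294 to 340.0 CPM in WT and 318 to 342 CPM in Neat1-/- mice. Of all genes tested, 8.3% had an unadjusted p under 0.05. All 7 markers of choroid plexus and ependyma had log2 fold changes below 0, with sums of 25.6 to 120.5 CPM in WT and 19.5 to 30.7 CPM in Neat1-/- mice, as did all 5 of red blood cells, with sums of 8.33 to 20.9 and 4.79 to 15.0 CPM. None of these 12 passed the unadjusted threshold, while 1 neuronal and 1 endothelial or mural marker were higher at it. Of 7 meningeal fibroblast markers, 3 had log2 fold changes above 0 and 4 below 0. Their sums were 40.3 to 257 CPM in WT and 96.5 to 135 CPM in Neat1-/- mice. Of 8 astrocyte markers 6 were above 0 and 2 below 0, with sums of 4585 to 5286 and 5096 to 5119 CPM. No marker of either list passed the unadjusted threshold. The part of these markers in the levels below was not tested. In bulk tissue, fewer cells of a type and less RNA per cell cannot be told apart.

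None of the 9 genes was called between genotypes, and all of their estimates were small. By edgeR's quasi-likelihood test with age as a covariate, 0 of 9 passed an adjusted p of 0.05, against a background of 0.0709% of all genes tested, and 0 of 9 had an unadjusted p under 0.05, against 8.3%. DESeq2 and limma's voomWithQualityWeights likewise gave 0 at either threshold. The WT and Neat1-/- levels overlapped for all 9 genes, while 2.67% of all genes tested had levels that did not overlap. Of the 9 log2 fold changes 7 were positive and 2 negative, with a median of 0.03, where 49.9% of all genes tested were positive and their median was -0.00023. The 95% intervals bound the difference more closely than a missed threshold does. All 9 lay within a 1.2-fold change in either direction, and 6 lay within a 1.1-fold change. The widest bounds were an increase of 12.7% for Nudt21 and a decrease of 10.6% for Rbm14. These intervals cover the spread between mice and hold for the mean over all cells of the tissue.

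**Figure D1:**
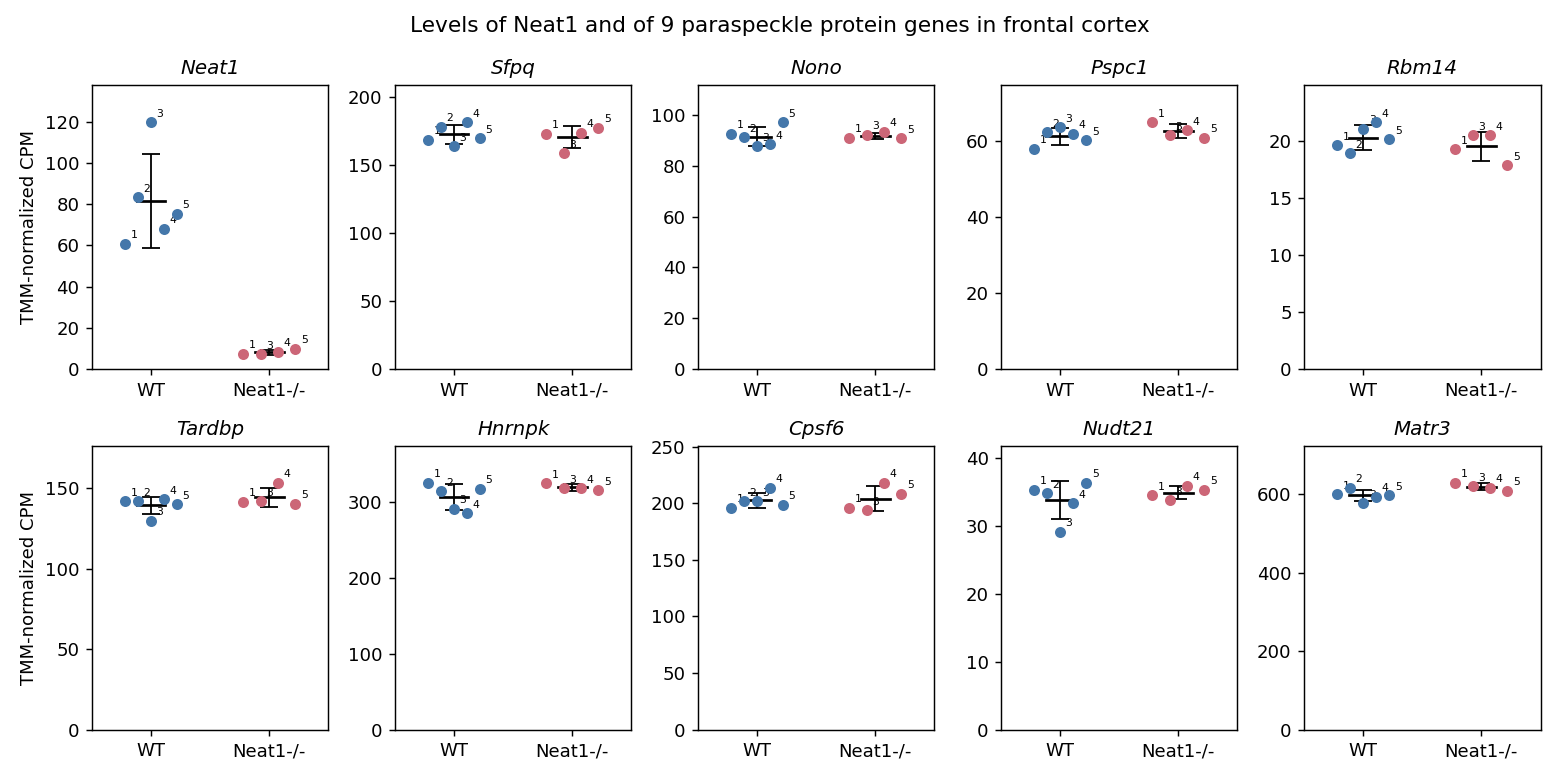
TMM-normalized CPM (y axis, from 0) of Neat1 and the 9 paraspeckle protein genes in WT mice (blue, n = 5) and Neat1-/- mice (red, n = 4). Each point is 1 mouse with its replicate number, and bars give the mean and SD. Neat1 separates the genotypes, while the points of every other gene overlap between them.

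SFPQ, NONO and PSPC1 form the family that binds along Neat1 RNA. Sfpq (chromosome 4, 127021324 to 127037013, plus strand) was at 169, 178, 164, 182 and 169.8 CPM in WT replicates 1 to 5. In Neat1-/- replicates 1, 3, 4 and 5 it was at 173, 159, 174 and 177 CPM. The lowest value of all 9 mice belonged to Neat1-/- replicate 3 and the highest to WT replicate 4, so that the range of each genotype ran across most of the other. The log2 fold change was -0.02 with a 95% interval from -0.11 to 0.08 (edgeR, adjusted p = 0.937).

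NONO, which pairs with SFPQ or PSPC1, showed the least spread of the 3 among Neat1-/- mice. Nono (chromosome X, 101429318 to 101448591, plus strand) was at 92.7, 91.4, 87.9, 88.5 and 97.4 CPM in WT mice. In Neat1-/- mice it was at 91.2, 92.3, 93.6 and 91.0 CPM, inside the WT range. Its log2 fold change was 0.01 with an interval from -0.07 to 0.08 (edgeR, adjusted p = 0.970). The 2 lowest values were those of WT replicates 3 and 4, and without these libraries the estimate was -0.04 (interval -0.11 to 0.03).

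PSPC1 is the member of the family most often used to mark the body itself. Pspc1 (chromosome 14, 56720710 to 56778316, minus strand) was at 58.0, 62.3, 63.8, 61.9 and 60.3 CPM in WT mice. It was at 65.1, 61.6, 62.8 and 60.9 CPM in Neat1-/- mice, where replicate 1 was the highest of all 9. Between genotypes the log2 fold change was 0.03 with an interval from -0.05 to 0.11 (edgeR, adjusted p = 0.817).

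RBM14, a protein with a prion-like domain, is required for paraspeckles to assemble. Rbm14 lies on the same chromosome as Neat1 (chromosome 19, 4800569 to 4811634, minus strand), at a distance of 1.01 Mb. It was at 19.6, 18.9, 21.1, 21.7 and 20.1 CPM in WT mice and at 19.3, 20.5, 20.5 and 17.9 CPM in Neat1-/- mice. The highest values were those of WT replicates 3 and 4 and the lowest was that of Neat1-/- replicate 5, with the other 6 mice between them. Its log2 fold change was -0.05 with an interval from -0.16 to 0.05 (edgeR, adjusted p = 0.773), and without WT replicates 3 and 4 it was -0.03.

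TARDBP, also called TDP-43, is a splicing regulator that leaves the nucleus in motor neuron disease. Tardbp (chromosome 4, 148612382 to 148627019, minus strand) was at 142, 142, 129.9, 143 and 140.1 CPM in WT mice. It was at 142, 142, 154 and 140.5 CPM in Neat1-/- mice. In each genotype a single mouse stood away from the rest, the low one being WT replicate 3 and the high one Neat1-/- replicate 4. Its log2 fold change was 0.05 with an interval from -0.03 to 0.13 (edgeR, adjusted p = 0.730), and without WT replicates 3 and 4 it was 0.02.

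HNRNPK opposes the cleavage factor at the poly(A) site of the short isoform of Neat1. Hnrnpk (chromosome 13, 58391142 to 58403343, minus strand) was at 325, 314, 291, 285 and 317 CPM in WT mice and at 324, 318, 318 and 315 CPM in Neat1-/- mice. WT replicates 3 and 4 were the lowest of all 9, and the other 3 WT mice spanned the whole Neat1-/- range. The log2 fold change was the largest of the 9 genes in size, 0.06 with an interval from -0.02 to 0.14 (edgeR, adjusted p = 0.679). Without WT replicates 3 and 4 it was -0.0011, with an interval from -0.06 to 0.06. When WT replicate 5 alone was left out, Hnrnpk was the 1 gene of the 9 with an unadjusted p under 0.05 (log2 fold change 0.08, adjusted p = 0.333 in edgeR), in a fit where 14.7% of all genes tested had one.

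CPSF6 and NUDT21 are the large and small subunits of cleavage factor I, which binds UGUA and steers the choice of poly(A) site. Cpsf6 (chromosome 10, 117344673 to 117380015, minus strand) was at 196, 202, 202, 214 and 199 CPM in WT mice and at 196, 194, 218 and 208 CPM in Neat1-/- mice. Its log2 fold change was 0.01 with an interval from -0.07 to 0.10 (edgeR, adjusted p = 0.948), and the Neat1-/- mice held both the lowest and the highest value. Nudt21 (chromosome 8, 94015496 to 94037031, minus strand) was at 35.3, 34.7, 29.1, 33.3 and 36.3 CPM in WT mice and at 34.5, 33.8, 35.9 and 35.3 CPM in Neat1-/- mice. WT replicate 3 was the lowest, and WT replicate 5 the highest. The log2 fold change of Nudt21 was 0.05 with an interval from -0.08 to 0.17 (edgeR, adjusted p = 0.836), and without WT replicates 3 and 4 it was -0.03.

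MATR3 is a protein of the nuclear matrix that binds RNA and DNA. Matr3 (chromosome 18, 35562138 to 35593835, plus strand) was the most abundant of the 9 genes, at 600.1, 617, 577, 594 and 597 CPM in WT mice and at 629, 621, 616 and 609 CPM in Neat1-/- mice. All 4 Neat1-/- mice were above 4 of the 5 WT mice, and WT replicate 2 lay within their range. This was a 1.04-fold level, or a log2 fold change of 0.05 with an interval from -0.01 to 0.11 (edgeR, adjusted p = 0.632). Over the 126 splits of the mice, an exact permutation test of mean CPM, two-sided, gave p = 0.0397, the smallest of the 9 such tests and not adjusted for them. It was the 1 gene of the 9 with an exact permutation p under 0.05, as were 6.81% of all genes tested. The lowest p this design allows is 0.00794. Leaving out any mouse other than WT replicate 2 took the exact permutation p to between 0.0714 and 0.107, and without WT replicate 2 it was 0.0286. The difference, 22.1 CPM with all mice, stayed between 17.1 and 27.0 CPM, and with library size alone it was 17.7 CPM (exact permutation p = 0.0238). Without WT replicates 3 and 4, the lowest of all 9 mice, the log2 fold change was 0.03 and the exact permutation p was 0.143.

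**Figure D2:**
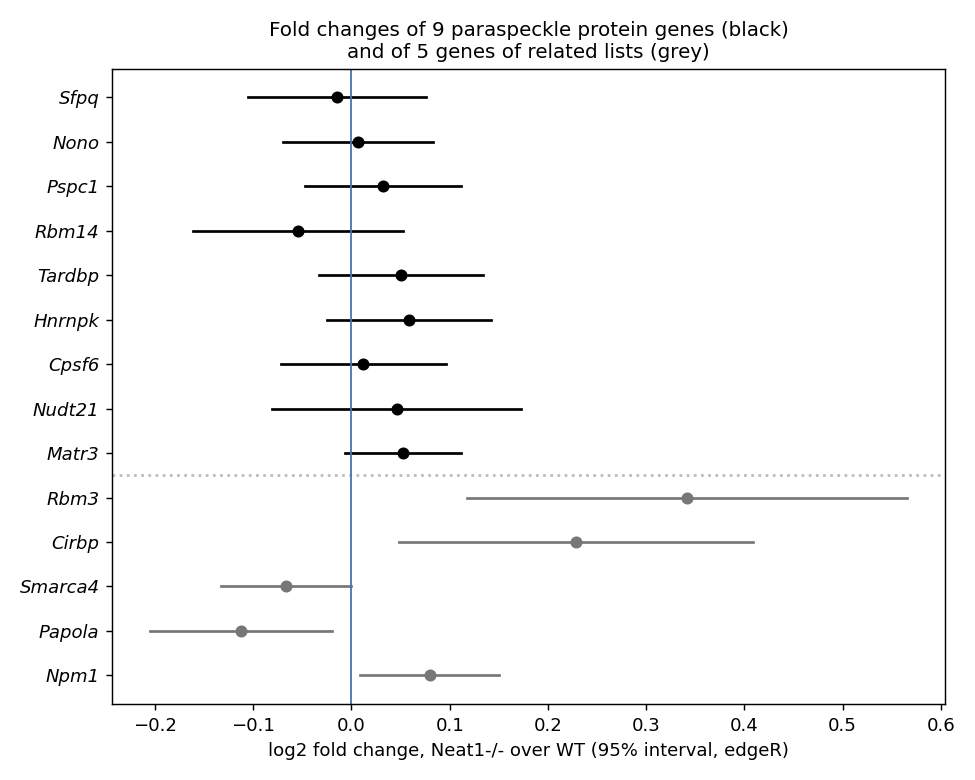
Log2 fold change of Neat1-/- over WT mice (x axis) with its 95% interval from edgeR, for the 9 paraspeckle protein genes (black) and for 5 genes of related lists that had an unadjusted p under 0.05 (grey). All black intervals cross 0, and they lie between -0.16 and 0.17.

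The genes were next viewed library by library. Together the levels of the 9 genes came to 0.157% to 0.169% of the TMM-scaled library total. They summed to 1624 ± 35.4 CPM (mean and SD) over 5 WT mice and 1666 ± 22.3 CPM over 4 Neat1-/- mice. The lowest sum, 1565 CPM, was that of WT replicate 3, where 2 of the 9 genes were above their own mean over all libraries. The highest, 1692 CPM, was that of Neat1-/- replicate 4, where all 9 genes were above it. The sums overlapped, since WT replicate 2 at 1659 CPM was above Neat1-/- replicates 3 and 5 at 1641 and 1655 CPM. The difference of 41.7 CPM between the means was 21.6 CPM without WT replicates 3 and 4, where the other 3 WT mice averaged 1644 ± 12.9 CPM, a setting chosen after seeing the data. In WT replicates 3 and 4 the genes did not move as a block. Hnrnpk, Nono, Nudt21 and Matr3 were lower in both than in any of the other 7 libraries. Rbm14 was higher in both than in any of the other 7.

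**Figure D3:**
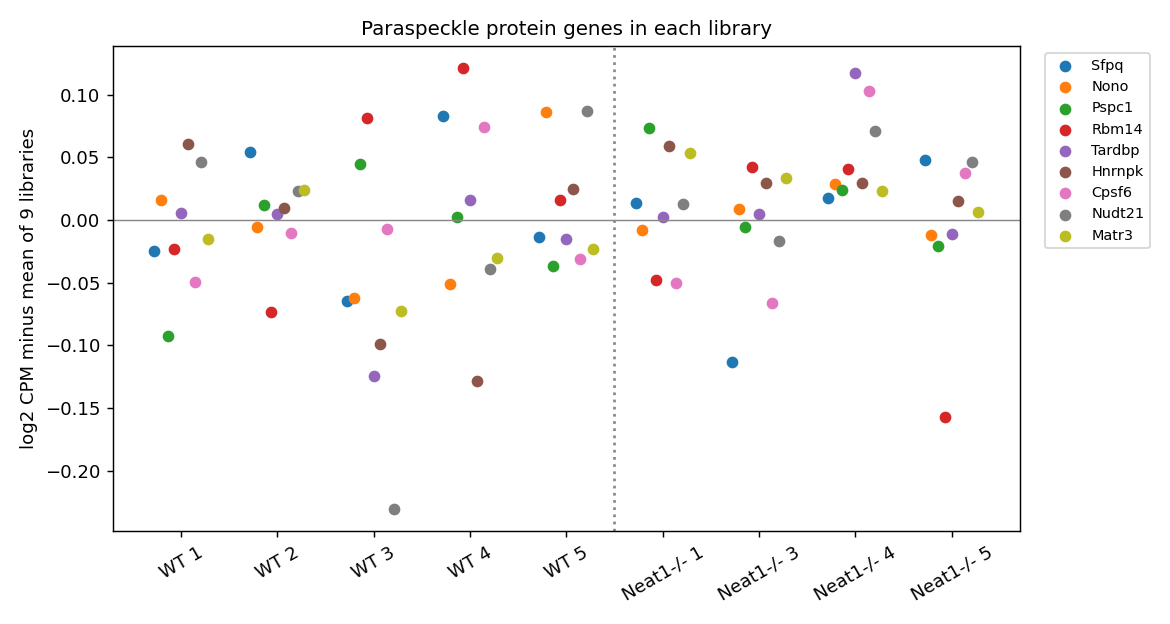
Level of each of the 9 genes in each library as the log2 CPM minus that gene's mean over the 9 libraries (y axis), with WT mice left of the dotted line and Neat1-/- mice right of it. Nudt21 in WT replicate 3 is the farthest point, and all 9 points of Neat1-/- replicate 4 lie above 0.

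The mouse-to-mouse spread of these genes was near that of other genes at 10 CPM or more. Their biological coefficient of variation in edgeR ranged from 0.039 for Matr3 to 0.0626 for Nudt21, with a median of 0.0469. Over all genes tested the median was 0.0867, and over the 9973 genes at 10 CPM or more it was 0.0504. Counts per gene were 935 to 1257 for Rbm14, the lowest, and 30142 to 40423 for Matr3, the highest, so that counting error differed between the genes.

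Divided by the annotated exon length of each gene, the WT levels fell in the order Matr3 (58.7 CPM per kb), Hnrnpk (47.4), Sfpq (36.4), Nono (20.9), Cpsf6 (19.3), Tardbp (17.9), Pspc1 (10.7), Nudt21 (6.31) and Rbm14 (5.19). Over all 9 mice, Matr3 ran from 56.8 to 61.9 CPM per kb and Hnrnpk from 44.1 to 50.3, without overlap. Nono, at 20.1 to 22.3, overlapped Cpsf6, at 18.5 to 20.8, and Cpsf6 overlapped Tardbp, at 16.7 to 19.7. Nudt21, at 5.45 to 6.79, and Rbm14, at 4.57 to 5.54, also overlapped, so that the order of these neighbours was within their spread. The length counts every annotated exon base of a gene, including exons that cortex may not use.

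Ratios between the genes within a library do not depend on how the libraries are scaled, and 6 pairs were compared between genotypes by two-sided exact permutation tests. For the related proteins, the mean log2 ratio of Sfpq to Nono counts was 0.91 ± 0.090 (SD, n = 5) in WT and 0.89 ± 0.078 (SD, n = 4) in Neat1-/- mice (difference -0.02, exact permutation p = 0.714). That of Pspc1 to Nono was -0.58 ± 0.10 (SD, n = 5) and -0.56 ± 0.045 (SD, n = 4), with a difference of 0.02 (exact permutation p = 0.651). WT replicates 3 and 4 held the 2 highest WT values, and without them this difference was 0.08 (exact permutation p = 0.200). From the deposited log2 values it was also 0.08 (exact permutation p = 0.0635). The ratio of Sfpq to Pspc1 differed by -0.05 on the log2 scale (exact permutation p = 0.381), the smallest p of the 6 from counts, and by -0.07 without WT replicates 3 and 4 (exact permutation p = 0.200). For the subunits of cleavage factor I, the log2 ratio of Cpsf6 to Nudt21 was 2.47, 2.54, 2.79, 2.68 and 2.45 in WT replicates 1 to 5. It was 2.51, 2.52, 2.60 and 2.56 in Neat1-/- replicates 1, 3, 4 and 5, all within the WT range, whose upper end was set by WT replicates 3 and 4. The difference was -0.04 (exact permutation p = 0.619), and without these 2 libraries it was 0.06 (exact permutation p = 0.171). Hnrnpk, which opposes that factor, had a log2 ratio to Nudt21 that differed by 0.01 (exact permutation p = 0.849) and a log2 ratio to Cpsf6 that differed by 0.05 (exact permutation p = 0.548). The genotypes overlapped in all 6 pairs. The p-values are not adjusted.

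**Figure D4:**
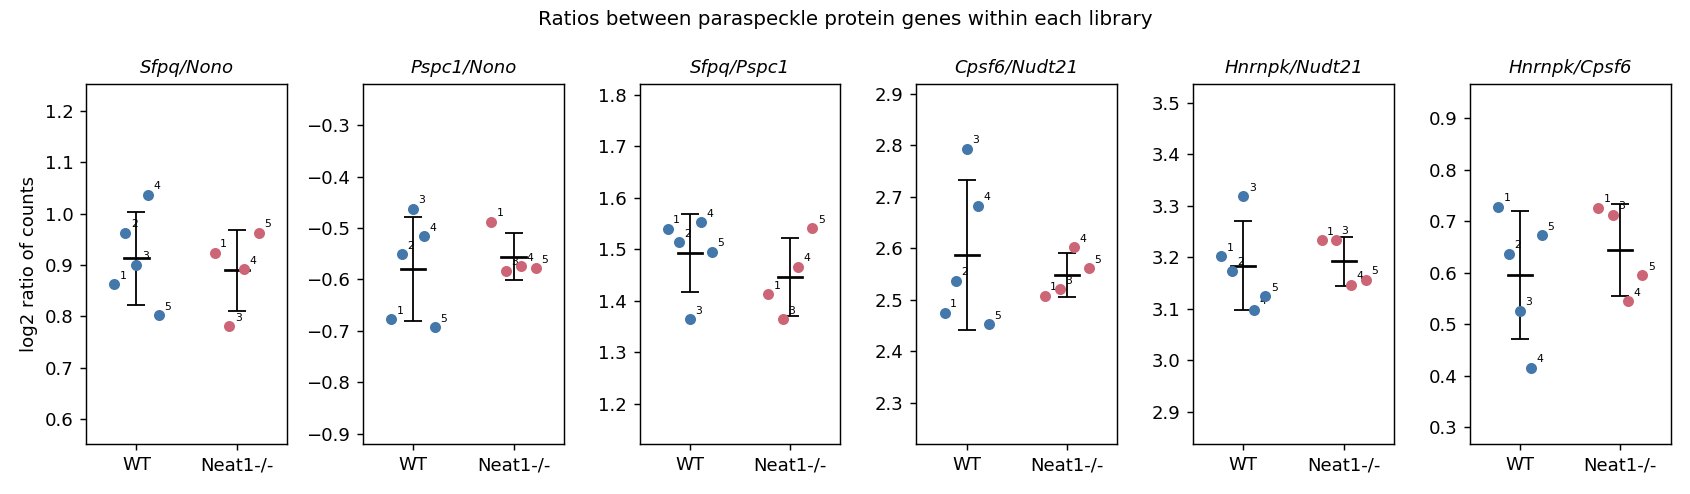
Log2 ratio of the counts of 2 genes in the same library (y axis, each panel spanning the same range around its mean) in WT mice (blue, n = 5) and Neat1-/- mice (red, n = 4). Each point is 1 mouse with its replicate number, bars give the mean and SD, and the genotypes overlap in every panel.

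The mice were 2 to 4 months old, and the same fit gave a change per month of age. Of the 9 genes, 1 had an unadjusted p under 0.05 for age, where 5.98% of all genes tested did, and 0 passed the adjusted threshold, where 0% did. The 1 gene was Rbm14, with a log2 change of 0.07 per month (standard error 0.030, adjusted p = 0.820 in edgeR). Its level was 17.9 to 19.6 CPM in the 3 mice of 2 months, 19.3 to 21.1 CPM in the 3 of 3 months and 20.1 to 21.7 CPM in the 3 of 4 months, so that only the youngest and the oldest mice did not overlap. WT replicates 3 and 4, aged 3 and 4 months, held the 2 highest levels, and without them the change was 0.06 per month (edgeR, adjusted p = 0.814) and 0 of the 9 genes had an unadjusted p under 0.05. For the other 8 genes the unadjusted p for age was 0.247 or more.

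The normalized log2 values that the authors deposited cover 13456 genes, all 9 of these among them. In that table the differences between genotype means ran from -0.03 for Nono to 0.05 for Pspc1, and the genotypes overlapped for all 9 genes. Nono and Nudt21, above 0 in edgeR, were below 0 there, with Nudt21 at -0.01. The deposited values of Nono were 6.390, 6.405, 6.417 and 6.421 in Neat1-/- replicates 1, 3, 4 and 5. They were 6.459, 6.419, 6.452, 6.430 and 6.450 in WT mice, so that only Neat1-/- replicate 5 lay within the WT range. The log2 difference of Matr3 was 0.04 there, and that of Hnrnpk was 0.01.

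Genes of related function were counted from lists drawn up by role. Of 35 other genes of paraspeckle proteins, 22 had log2 fold changes above 0 and 13 below 0. Their median was 0.01, and 0 were called by edgeR after adjustment. Those with an unadjusted p under 0.05 were 2 with a higher and 1 with a lower level in Neat1-/- mice. Rbm3, a cold-induced RNA-binding protein, averaged 37.1 ± 6.64 CPM over 5 WT mice and 47.0 ± 2.89 CPM over 4 Neat1-/- mice (± SD; log2 fold change 0.34, edgeR adjusted p = 0.490). Cirbp, its cold-induced relative, averaged 44.1 ± 5.26 and 51.6 ± 4.70 CPM, with a log2 fold change of 0.23 (edgeR, adjusted p = 0.555). Smarca4, the ATPase of a chromatin remodelling complex that paraspeckles need, had a log2 fold change of -0.07 (edgeR, adjusted p = 0.601). Rbm3 and Smarca4 were named by the study from these same libraries, so their direction is not independent evidence, and the levels of all 3 overlapped between genotypes.

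Of 20 genes of mRNA 3′ end processing, which include the partners of cleavage factor I, 17 had log2 fold changes above 0 and 3 below 0, and the median was 0.02. None passed an adjusted p of 0.05 in edgeR, and 1 had an unadjusted p under 0.05. It was Papola, the nuclear poly(A) polymerase, which averaged 96.1 ± 6.27 CPM over the WT mice and 88.9 ± 3.95 CPM over the Neat1-/- mice (log2 fold change -0.11, edgeR adjusted p = 0.570). It too was named by the study from these libraries. Of 20 genes of proteins of other nuclear bodies, 15 had log2 fold changes above 0 and 5 below 0, the median was 0.04, and 0 were called by edgeR after adjustment. The 1 with an unadjusted p under 0.05 was Npm1, a nucleolar chaperone, with a log2 fold change of 0.08 (edgeR, adjusted p = 0.580). These counts, 3 of 35, 1 of 20 and 1 of 20, stand beside the background of 8.3%.

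For the SFPQ, NONO and PSPC1 genes, the closest patterns over the 9 libraries were sought among 14994 genes with a mean of at least 1 CPM. Likeness was the root mean square difference of centred log2 CPM. Sfpq was closest to Snrk at 0.0147 and Phtf2 at 0.0222. Nono was closest to Oat at 0.0215 and Pmpcb at 0.0217, and Pspc1 to Ift81 at 0.0185 and Vps9d1 at 0.0216. None of the 9 genes was among these 6 neighbours. With 6 picked from 14994 genes this was likely in advance, and whether the 9 genes vary together was not tested.

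Some reads of these genes could have been assigned elsewhere or, on shared exons, left uncounted. Rbm14 shares 727 exon bases, 18.6% of its length, with the gene model Gm21992 on the same strand, which held 269 to 429 counts per library. Tardbp shares 1817 exon bases, 23.3% of its length, with Masp2 on the opposite strand, a gene with 24 to 51 counts. Hnrnpk shares 330 exon bases with Rmi1 on the opposite strand, which held 304 to 426 counts. Whether the counting used the strand is not stated, and without it reads from such opposite genes cannot be told apart. Sfpq shares 216 exon bases with Gm12940, which held 710 to 887 counts. Hnrnpk has a processed pseudogene, Gm7964, that shares 930 stretches of 50 bases with it and held 215 to 350 counts, against at least 15202 for Hnrnpk. The pseudogenes Gm8806 of Nono and Gm7488 of Nudt21 held at most 17 and 40 counts. Matr3 shares 1754 exon bases, 17.3% of its length, with the protein-coding model Gm28285 on the same strand. The deposited counts hold no entry for Gm28285, and how reads on those bases were assigned was not tested. Levels of all 7 of these genes are uncertain to that extent.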

How the data were processed

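For 9 libraries, 1 mouse each, the authors deposited raw counts by Ensembl gene and normalized log2 expression values. Reads were mapped to mm10. Per the submitters' processing notes, STAR 2.5.0 and then HTSeq 0.8.0 made the counts, while the supplementary methods name TopHat, Bowtie and HTSeq in intersection-strict mode, which counts a read only when it lies wholly within 1 gene. In that mode counts miss intronic reads and reads that lie wholly on exon bases shared with another counted gene.

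Counts were used as deposited, with 0 entries naming no gene. Names (97.3% of IDs), GRCm38 positions and Neat1 sequences came from GENCODE M21. Genes kept by filterByExpr were tested with edgeR 4.0.16 (R 4.3.3; glmQLFit, glmQLFTest, TMM factors, age in months and genotype) with Benjamini-Hochberg adjustment over all 19753. Exact permutation tests went through all splits of the mice in Python 3.11.15 with NumPy 2.4.6. The edgeR fit was tested on simulated counts, and the permutation test on 1 made-up set of separated values. DESeq2 1.42.0, limma 3.58.1, other scalings, filters and age terms, a replicate block and left-out libraries were alternatives. Named list genes were those with an unadjusted p under 0.05, at most 4 a list. The genes and lists were chosen with earlier results of these data known. No 2 libraries of a genotype were duplicates.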

Additional observations from a re-analysis of the deposited data

Results flagged for a closer look

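Of 30 groups of 4 or 5 libraries examined, 3 held a library far from the rest by Dixon's criterion at 95%, which chance gives in about 1 group in 20. Tardbp was at 129.9 CPM in WT replicate 3, below the other 4 WT mice at 140.1 to 143 CPM. It was at 153.5 CPM in Neat1-/- replicate 4, above the other 3 Neat1-/- mice at 140.5 to 142 CPM. The log2 ratio of Pspc1 to Nono counts was -0.488 in Neat1-/- replicate 1 and between -0.583 and -0.574 in the other 3 Neat1-/- mice.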

How the results depend on the processing

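In all 20 fits, the one reported and its alternatives, 0 of the 9 genes passed an adjusted p of 0.05 for genotype, and 0 did for age in any fit with a change per month. The directions of the log2 fold changes near 0 did not hold throughout, and where a setting turned one the cause was not tested. Cpsf6 was at -0.0015 with limma and -0.0018 with a replicate block, Nono at -0.0036 with library size alone and -0.0038 with a filter of 1 CPM, and Sfpq at 0.010 with age as a factor. Without WT replicates 3 and 4, Nono was at -0.041, Hnrnpk at -0.0011 and Nudt21 at -0.033, and the log2 ratio differences were 0.014 for Sfpq/Nono, 0.060 for Cpsf6/Nudt21 and -0.035 for Hnrnpk/Cpsf6. From the deposited log2 values these 3 ratio differences were 0.028, 0.052 and -0.027, and Nono was at -0.034 and Nudt21 at -0.015. Pspc1, Tardbp and Matr3 were above 0 and Rbm14 below 0 in all 20 fits, but with single libraries left out they ranged from 0.0048 (without WT replicate 1) to 0.042, 0.016 (without Neat1-/- replicate 4) to 0.060, 0.036 to 0.064 and -0.084 (without WT replicate 5) to -0.034, in that order, and Hnrnpk from 0.028 (without WT replicate 4) to 0.080. The others then ranged from -0.042 to 0.017 for Sfpq, -0.018 to 0.028 for Nono, -0.023 to 0.034 for Cpsf6 and -0.0065 to 0.077 for Nudt21. Ratio differences then ranged from -0.051 to 0.013 for Sfpq/Nono, -0.0040 to 0.053 for Pspc1/Nono, -0.074 to 0.012 for Cpsf6/Nudt21 and -0.012 to 0.043 for Hnrnpk/Nudt21. Genes of the 9 at an unadjusted p under 0.05 then numbered 0 to 1 for genotype (5.16% to 14.7% of all genes tested) and 0 to 1 for age (3.99% to 13.4%), and those at an exact permutation p under 0.05 numbered 0 to 1 (3.53% to 5.08%). For age the count was 0 with no filter, with the replicate block and without WT replicates 3 and 4, and the permutation count was also 0 without these libraries. At an unadjusted p under 0.05, the other paraspeckle genes numbered 5 of 35 with no filter (7.56% of all genes tested), 7 with age as a factor (9.03%) and 1 to 6 with single libraries left out. Genes of 3′ end processing numbered 2 of 20 with limma (9.9%) or the block (9.65%), 0 without WT replicates 3 and 4 (7.29%) and 0 to 2 with single libraries left out. Genes of other nuclear bodies numbered 3 of 20 with limma, no filter or no age term (8.16%), 2 with age as a factor, 0 with the block or without WT replicates 3 and 4, and 0 to 2 with single libraries left out. Over all genes tested, 14 were called for genotype by edgeR, 76 by DESeq2, 22 by limma, 76 by edgeR with no filter and 8 to 30 with single libraries left out. Replicate numbers shared between genotypes gave correlations of -0.077 to 0.137, and 1 of the 4 Neat1-/- libraries correlated best with its own number. These few correlations cannot show whether mice of the same number were paired. With the replicate block the count of called genes was 12, and 0 of the 9 were among them. Rbm14 and Nudt21, with the fewest counts, had the widest intervals, but the cause was not tested. The interval of Nudt21 was -0.080 to 0.172 with all mice and -0.096 to 0.083 without WT replicate 3.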
